A study of Homo sapiens with 8 samples.

Results

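H/ACA small nucleolar RNAs and small Cajal body RNAs (scaRNAs) were followed in HCT116, a line of human colorectal cancer cells used here to model tumour self-seeding, in which tumour cells from the circulation settle again in a tumour. Members were all genes whose symbol starts with SNORA or SCARNA followed by a digit, which gave 211 of 39533 genes, 182 SNORA and 29 SCARNA. The groups were TSC, tumour self-seeded cells taken from the primary tumour (n = 3), CTC, circulating tumour cells taken from blood (n = 2), and PC, primary tumour cells taken from the primary tumour (n = 3). All 8 libraries come from 1 cell line and from total RNA depleted of ribosomal RNA, and no further genotype or agent is given in the labels. The title of the series speaks of liver cancer although the cell line is colorectal, and the species that carried the tumours is not stated. The labels do not say whether replicates were separate cultures or animals, so a p-value here covers only the spread between the libraries, part of which may be technical.

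H/ACA RNAs fold into hairpins joined by a hinge, the H box, and end a few bases after the trinucleotide ACA. Together with dyskerin (DKC1), NOP10, NHP2 and GAR1 they direct the change of uridine to pseudouridine in ribosomal RNA, and the scaRNAs direct modification of spliceosomal RNAs in Cajal bodies, nuclear bodies organised by coilin. Most human members lie in introns of host genes and are released when the intron is processed. The SCARNA symbols also cover RNAs of the box C/D kind, which direct methylation of the ribose, and RNAs that combine both kinds, so the set chosen by symbol is wider than H/ACA RNAs.

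The sequences of the members on which the results turn show these features. They are the GENCODE v29 transcripts on GRCh38, in DNA letters and in the 5′ to 3′ direction, and a transcript was found for 167 of the 211 members. SNORA73A (chr1:28507366-28507571, plus strand) and SNORA73B (chr1:28508559-28508762, plus strand) lie in the gene SNHG3 and are shown as the pair with the highest levels. SCARNA21 (chr17:7906122-7906260, plus strand, in CHD3) was called in 2 comparisons, and SNORA64 (chr16:1962973-1963106, minus strand, in RPS2) is shown as a member whose level differed widely between PC libraries. Capitals mark the ANANNA nearest the middle of the RNA, where an H box would lie, and the ACA that stands 3 bases before the end.
SNORA73A: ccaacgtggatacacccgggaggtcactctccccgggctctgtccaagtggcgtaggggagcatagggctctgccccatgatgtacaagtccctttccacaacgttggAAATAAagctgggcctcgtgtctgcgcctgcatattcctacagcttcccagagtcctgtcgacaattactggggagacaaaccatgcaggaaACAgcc
SNORA73B: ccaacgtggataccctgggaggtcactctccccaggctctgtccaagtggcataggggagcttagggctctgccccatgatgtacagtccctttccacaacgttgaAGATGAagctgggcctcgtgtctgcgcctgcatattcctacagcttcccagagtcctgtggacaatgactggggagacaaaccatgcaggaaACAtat
SCARNA21: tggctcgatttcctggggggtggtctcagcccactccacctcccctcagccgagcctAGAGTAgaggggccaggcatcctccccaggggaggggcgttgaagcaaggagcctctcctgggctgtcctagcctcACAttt
SNORA64: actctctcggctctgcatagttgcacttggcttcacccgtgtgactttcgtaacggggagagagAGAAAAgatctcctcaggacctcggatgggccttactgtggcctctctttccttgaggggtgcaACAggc

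SNORA73A (206 bases) and SNORA73B (204 bases) differed by 14 base changes, insertions or deletions and were 93.2% identical, so reads of either may be counted for the other, and their separate values are uncertain to that extent. The next pair shows the box C/D letters in 2 scaRNAs that were called. SCARNA12 (chr12:6967337-6967606, minus strand, in PHB2), also known as U89, combines box C/D and H/ACA features. SCARNA2 (chr1:109100193-109100612, plus strand), a box C/D scaRNA that guides methylation of U2 spliceosomal RNA, is given as bases 241 to 420 of its 420. Capitals mark TGATGA and the last CTGA.
SCARNA12: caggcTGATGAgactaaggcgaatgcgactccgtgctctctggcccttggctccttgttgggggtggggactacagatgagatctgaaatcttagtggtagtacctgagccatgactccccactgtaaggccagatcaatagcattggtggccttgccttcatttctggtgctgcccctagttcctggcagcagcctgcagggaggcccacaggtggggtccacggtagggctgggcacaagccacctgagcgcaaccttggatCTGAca
SCARNA2: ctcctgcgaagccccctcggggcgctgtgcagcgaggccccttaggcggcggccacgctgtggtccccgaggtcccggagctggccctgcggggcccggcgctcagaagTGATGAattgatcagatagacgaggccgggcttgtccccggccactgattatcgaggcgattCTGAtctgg

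ACA stood 3 bases before the annotated end in 110 of 145 SNORA members (75.9%) and in 13 of 22 scaRNA members (59.1%) that had a sequence, against 4 of 278 SNORD genes (1.4%) and 14 of 1900 snRNA genes (0.7%) of the same annotation. With ACA anywhere in the last 10 bases these shares were 91.7% and 77.3%, against 5.0% and 8.1%. TGATGA followed by CTGA, read on the transcribed strand, was found in 7 of 22 scaRNA members (31.8%) and 1 of 145 SNORA members (0.7%), against 212 of 278 SNORD genes (76.3%) and 7 of 1900 snRNA genes (0.4%). The label H/ACA thus fits the letters of most SNORA members and of a smaller share of the scaRNAs.

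Before the levels, 2 libraries need to be set apart. Total counts were 4578869, 14717833 and 11268959 in TSC, 957607 and 10524069 in CTC and 11648950, 10864761 and 19264595 in PC. CTC replicate 1 was by far the shallowest, and a count of 0 there allowed up to 2.99 CPM, against 0.156 to 0.669 CPM in the other 7 libraries (a floor of 3 counts, for counting error only). CPM values use library sizes corrected for composition by TMM, unless the unscaled library is named. PC replicate 3 was the deepest library but had the lowest share of its counts in the members among the PC libraries, at 0.0827%. Among the 48 members whose average log2 CPM was 2 or more, its level was below the mean of PC replicates 1 and 2 by a median of 1.79 on the log2 scale (log2 ratio −1.79), whereas the median over 10906 genes at or above that level was −0.0002. The ratio differed with the length of the member. The median was −1.88 for 33 members under 150 nt, −1.86 for 4 members of 150 to 199 nt and −0.70 for 11 members of 200 nt and over, with length classes chosen after the values were seen. Across these 48 members Pearson's r between length and the log2 ratio was 0.651 and Spearman's rho 0.414, as a description of 3 libraries. Length and class were mixed: of the 11 members of 200 nt and over, 7 were scaRNAs, with log2 ratios of −0.95 to 0.0009, and 4 were SNORA members, with log2 ratios of −2.16 to −1.10. Whether RNA length, class, extraction or another property of this library sets its level was not tested.

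**Figure D1:**
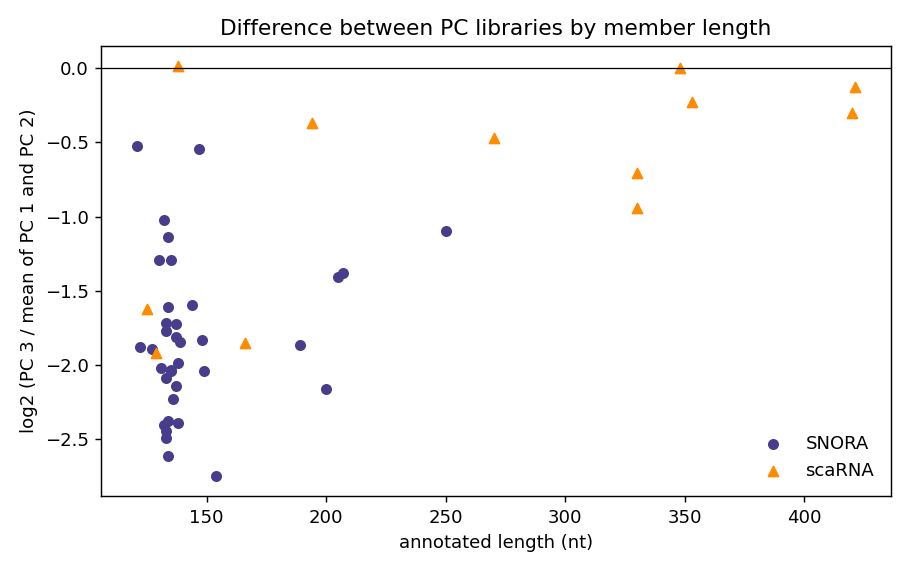
The log2 ratio of PC replicate 3 to the mean of PC replicates 1 and 2 is plotted against annotated length in nt for the 48 members whose average log2 CPM was 2 or more, with circles for SNORA and triangles for scaRNA members. Members under 150 nt lie at a median of −1.88 and members of 200 nt and over, 7 of 11 of them scaRNAs, at a median of −0.70, and the line at 0 marks equal levels.

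Epithelial markers were counted in all 8 libraries, with a summed level of EPCAM, KRT8, KRT18, KRT19 and CDH1 of 7950 to 9211 CPM in TSC, 5133 and 7584 CPM in CTC and 5920 to 7975 CPM in PC. Leukocyte and erythroid markers were higher in CTC, but platelet markers were not called. The 15 leukocyte markers summed to 3.88 to 6.24 CPM in TSC, 446 and 153 CPM in CTC and 3.53 to 5.28 CPM in PC. Of these, 8 were tested and 7 were called higher in CTC than in PC, while CD3E, S100A8 and S100A9 were at 0 in all libraries. The 6 erythroid markers summed to 195 and 252 CPM in CTC, against 0.104 to 1.59 CPM in PC, and all 3 tested were called higher in CTC than in PC, while HBA2 was at 0 throughout. The 4 platelet markers summed to 0 to 1.54 CPM in TSC, 1.995 and 1.62 CPM in CTC and 1.20 to 1.97 CPM in PC. Only 1 of them was tested, and it was not called in any comparison. The part of blood cell RNA in the CTC results below was not tested. In such bulk samples fewer cells of a type and less RNA per cell cannot be told apart.

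Of the 211 members, 148 had a count in some library, 78 had counts in all 8 libraries and 63 were at 0 throughout. Members with at least 1 count numbered 116, 125 and 128 in TSC replicates 1 to 3, 82 and 113 in CTC replicates 1 and 2, and 131, 122 and 124 in PC replicates 1 to 3. The lowest number belonged to the shallowest library. After all libraries were thinned to 957607 counts the numbers were 95, 78 and 96 in TSC, 82 and 78 in CTC and 105, 92 and 81 in PC, and the ranges of the 3 groups overlapped. With at least 10 counts required, CTC replicate 1 kept 16 members, CTC replicate 2 kept 65, TSC libraries kept 73 to 85 and PC libraries 88 to 100.

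**Figure D2:**
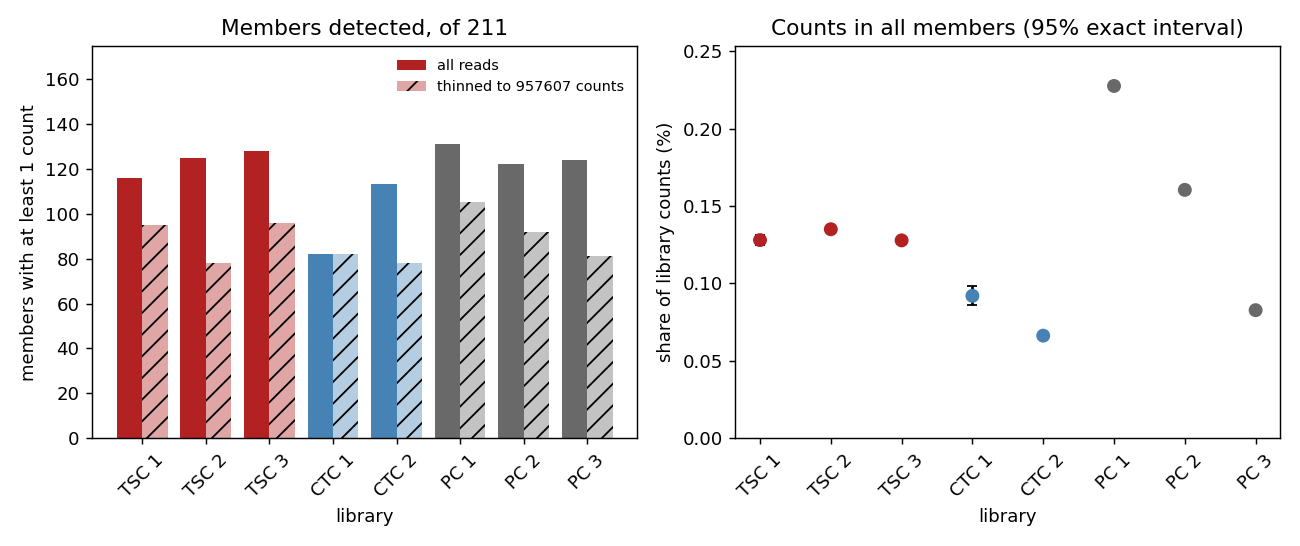
Left, members with at least 1 count in each library, from all reads (solid bars) and after thinning to the shallowest library (hatched bars). Right, the percent of all counts of a library that fell in the members, with exact 95% binomial intervals that cover counting error only. CTC replicate 1 has the fewest members before thinning, and the 3 PC libraries span 0.0827% to 0.228% of counts, a range that holds the TSC libraries.

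The 63 members at 0 were 58 SNORA and 5 scaRNA genes, among them SCARNA3, SCARNA6 and SCARNA13. Properties that can affect counting were compared between members with and without counts. An exon of another gene on the same strand overlapped 15 of 44 members at 0 (34.1%) and 44 of 123 members with a count (35.8%) that could be matched to GENCODE. A closest member of at least 90% identity was found for 19 of 44 and 33 of 123. Whatever this comparison shows, a 0 cannot be read as absence of the RNA, since how overlapping and multiply mapped reads were treated is not stated in the sources. For comparison, 183 of 357 box C/D SNORD genes were at 0 in all libraries.

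Counts in the members made up 0.128%, 0.135% and 0.128% of the TSC libraries, 0.0920% and 0.0663% of the CTC libraries and 0.228%, 0.160% and 0.0827% of the PC libraries. The exact 95% binomial interval was widest in CTC replicate 1, at 0.0860% to 0.0983%. The TSC libraries lay close together and inside the PC range. CTC replicate 2 was below every other library, but CTC replicate 1 was above PC replicate 3. The mean was 0.130% ± 0.0041 in TSC (SD, n = 3), 0.0791% ± 0.0182 in CTC (SD, n = 2) and 0.157% ± 0.0724 in PC (SD, n = 3).

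The SNORA and scaRNA classes differed in how far the groups overlapped. SNORA members summed to 935, 866 and 864 CPM of the unscaled library in TSC, 682 and 488 in CTC and 1738, 1120 and 461 in PC. PC replicate 3 was the lowest of all 8 libraries, so CTC and PC overlapped. The scaRNA members summed to 345, 485 and 415 CPM of the unscaled library in TSC, 238 and 175 in CTC and 537, 484 and 366 in PC. Both CTC libraries lay below all 6 others for this class.

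Few genes held most of the counts. SNORA73A, SNORA73B and SCARNA2 held 49.8% of the 107862 member counts and the 10 largest held 67.1%. Per length, averaged over the 8 libraries, SNORA73B was at 1257 CPM per kilobase, SNORA73A at 1036, SCARNA2 at 347, SCARNA21 at 270, SNORA64 at 180, SCARNA28 and SNORA23 at 144 each, SNORA50C at 121, SCARNA12 at 119 and SCARNA7 at 114 CPM per kilobase. SNORA73, known as U17 or E1, takes part in the processing of pre-ribosomal RNA rather than in pseudouridylation. Annotated lengths ran from 86 to 421 nt, with a median of 135 nt. A read from an RNA shorter than the library's fragments may be recovered less well, so levels per length compare members only roughly.

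The 97 members that passed the filter on low counts, 78 SNORA and 19 scaRNA, were tested, and 51 with some counts were not. A call is an adjusted p under 0.05 by the quasi-likelihood test of edgeR, adjusted by the Benjamini-Hochberg method over all 14255 tested genes, in 1 fit of all 8 libraries. The comparisons share libraries (PC in both comparisons with PC, CTC in both comparisons with CTC, TSC in both with TSC), so they are not independent of each other.

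TSC set against PC addresses how cells that returned to the tumour differ from its other cells. By edgeR 0 of 97 members were called, where 0.505% of all tested genes were called. An unadjusted p under 0.05 was reached by 2 members, against 10.3% of all tested genes. The Wald test of DESeq2 called 0 members, beside 193 of 14255 tested genes. By limma-voom 2 of 97 members were called, SCARNA10 and SCARNA9L, beside 553 of 14255 tested genes. The log2 fold change was negative for 70 of 97 members, with a median of −0.20, beside 0.006 over all tested genes. This median rested on single PC libraries: it was 0.18 without PC replicate 1 and −0.57 without PC replicate 3.

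SNORA87 had the smallest adjusted p in this comparison, at 0.395 by edgeR. It was at 0.668, 0.847 and 0.814 CPM in TSC, against 3.77, 2.58 and 2.49 CPM in PC, and its log2 fold change was −1.88 ± 0.72 (SE, n = 3 and 3). SCARNA9L, a copy of the box C/D scaRNA gene SCARNA9, was at 6.24, 5.43 and 12.8 CPM in TSC, against 4.94, 2.94 and 3.95 CPM in PC (log2 1.05 ± 0.44, adjusted p = 0.436 by edgeR). The libraries of the 2 groups did not overlap for either gene, but neither passed the test. Of the 97 tested members they were the 1 lower and the 1 higher in all TSC libraries. The share of all tested genes without overlap is not given for TSC against PC. SCARNA10, also known as U85, a composite scaRNA that guides modification of U5 RNA, was at 40.8, 30.9 and 23.0 CPM in TSC, against 57.9, 50.6 and 27.9 CPM in PC (log2 −0.54 ± 0.27, adjusted p = 0.533 by edgeR). Its groups overlapped.

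The most abundant members were not called, and TSC and PC overlapped for each of the following 3. SNORA73B was at 240, 251 and 273 CPM in TSC, against 479, 315 and 150 CPM in PC (log2 −0.30 ± 0.31, adjusted p = 0.782 by edgeR). SNORA73A was at 182, 296 and 227 CPM in TSC, against 392, 288 and 131 CPM in PC, and SCARNA2 at 129, 185 and 179 CPM in TSC, against 209, 177 and 156 CPM in PC. The log2 fold changes of SNORA73A and SCARNA2 were −0.20 ± 0.30 and −0.13 ± 0.18 (adjusted p = 0.872 and 0.855 by edgeR). Apart from SNORA87, the lowest fitted changes belonged to SNORA92 (−1.62), SNORA80E (−1.40), SNORA80D (−0.96) and SNORA13 (−0.92), and the highest beside SCARNA9L to SNORA44 (1.27), SNORA104 (0.63), SCARNA20 (0.47) and SCARNA18 (0.41), all members of low level with adjusted p of at least 0.637.

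**Figure D3:**
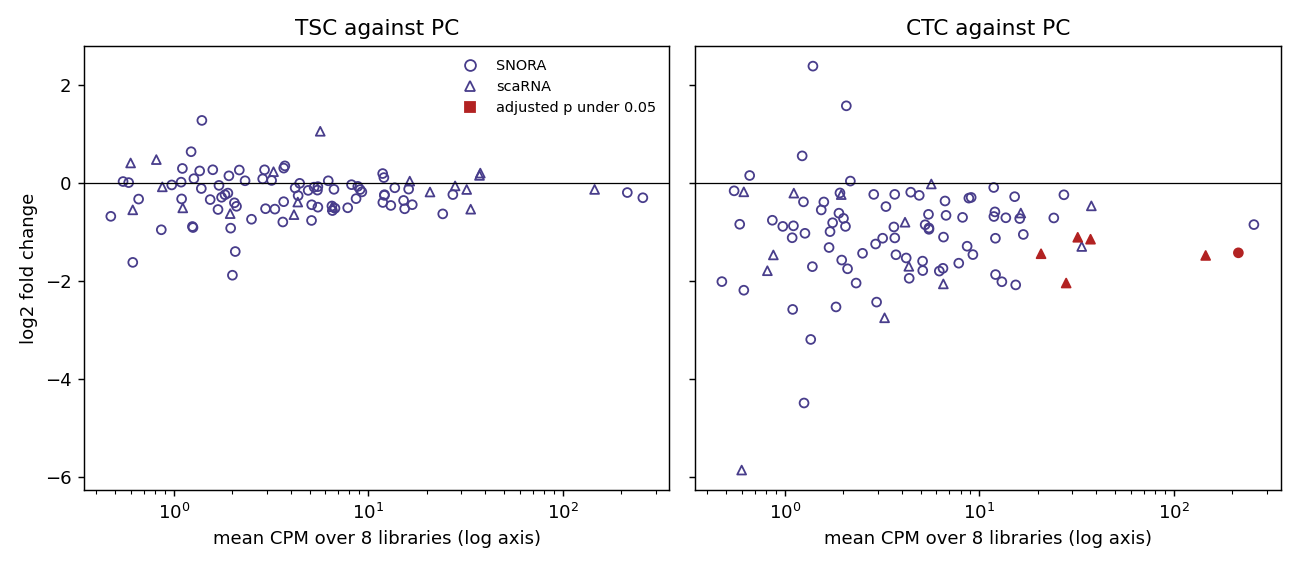
Log2 fold change of the 97 tested members against mean CPM over the 8 libraries (log axis), for TSC against PC (left) and CTC against PC (right), with circles for SNORA, triangles for scaRNA members and filled symbols for an adjusted p under 0.05. In the left panel 0 members are called and 70 lie below 0, in the right panel 6 are called and 92 lie below 0, and the lowest point on the right is SCARNA18, whose fitted change depends on the prior count since it had 0 counts in both CTC libraries.

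The comparison of CTC with PC sets cells taken from blood against cells taken from the tumour. Here 6 of 97 members were called, all lower in CTC (6.19%), where 3.92% of all tested genes were called and 2.52% were called lower. The 6 were SCARNA2, SCARNA28, SCARNA21, SCARNA9, SCARNA12 and SNORA73A, so 5 of 19 tested scaRNAs and 1 of 78 tested SNORA members were called. Fitted changes were negative for all 19 of these scaRNAs and for 73 of the 78 SNORA members. All 6 calls came from the 29 members that reached 3 or more in average log2 CPM (20.7%). Among all tested genes at that level 4.4% were called, in either direction. Whether the 2 classes differ in their change was not tested. An unadjusted p under 0.05 was reached by 28 of 97 (28.9%), against 23.6% of all tested genes. Both CTC libraries lay below all PC libraries for 29 of 97 members, where this held for 24.7% of all tested genes. The log2 fold change was negative for 92 of 97 members with a median of −0.95, beside 52.6% of all tested genes with a negative value and a median of −0.04. Placing SCARNA18, which had 0 counts in CTC, at its bound of 3 counts over the group left the median at −0.95.

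SCARNA2 had the smallest adjusted p. It was at 65.8 and 64.0 CPM in CTC, against 209, 177 and 156 CPM in PC, a fall of 2.79-fold (log2 −1.48 ± 0.22 SE, n = 2 and 3, adjusted p = 0.00378 by edgeR). Every PC library was above both CTC libraries, with no overlap. SCARNA9, a box C/D scaRNA that also guides U2 modification (chr11:93721514-93721866 in RefSeq on GRCh38), was at 12.0 and 8.58 CPM in CTC, against 28.9, 25.8 and 23.3 CPM in PC (log2 −1.45 ± 0.36, adjusted p = 0.0372).

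SCARNA28 (chr7:98881697-98881890 in RefSeq on GRCh38) was at 14.0 and 6.58 CPM in CTC, against 39.7, 35.7 and 29.1 CPM in PC (log2 −2.04 ± 0.45, adjusted p = 0.0234). The H/ACA scaRNA SCARNA21 was at 17.0 and 19.5 CPM in CTC, against 35.5, 47.0 and 41.6 CPM in PC (log2 −1.15 ± 0.26, adjusted p = 0.0248). The composite SCARNA12, whose sequence overlaps an exon of PHB2 on the same strand, was at 20.9 and 16.2 CPM in CTC, against 44.3, 40.3 and 30.4 CPM in PC (log2 −1.11 ± 0.28, adjusted p = 0.0387). For these 3 genes the groups did not overlap. An exon on the same strand also covered part of SCARNA2 (from AL356488.2) and of SNORA73A (from SNHG3), but not of SCARNA21. SCARNA9 and SCARNA28 were not matched to GENCODE. Of the 86 tested members that were matched, 41 had a same-strand exon overlap.

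SNORA73A was the 1 SNORA member called. It was at 92.8 and 107 CPM in CTC, against 392, 288 and 131 CPM in PC (log2 −1.43 ± 0.36, adjusted p = 0.0409). Its near copy SNORA73B was at 223 and 132 CPM in CTC, against 479, 315 and 150 CPM in PC (log2 −0.85 ± 0.36, adjusted p = 0.173), and its groups overlapped. The ratio of SNORA73A to SNORA73B was 0.762, 1.18 and 0.830 in TSC, 0.415 and 0.810 in CTC and 0.820, 0.913 and 0.873 in PC. CTC replicate 1, with 93 and 224 counts for the 2 genes, stood apart. Whether the copies differ in their change was not tested.

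**Figure D4:**
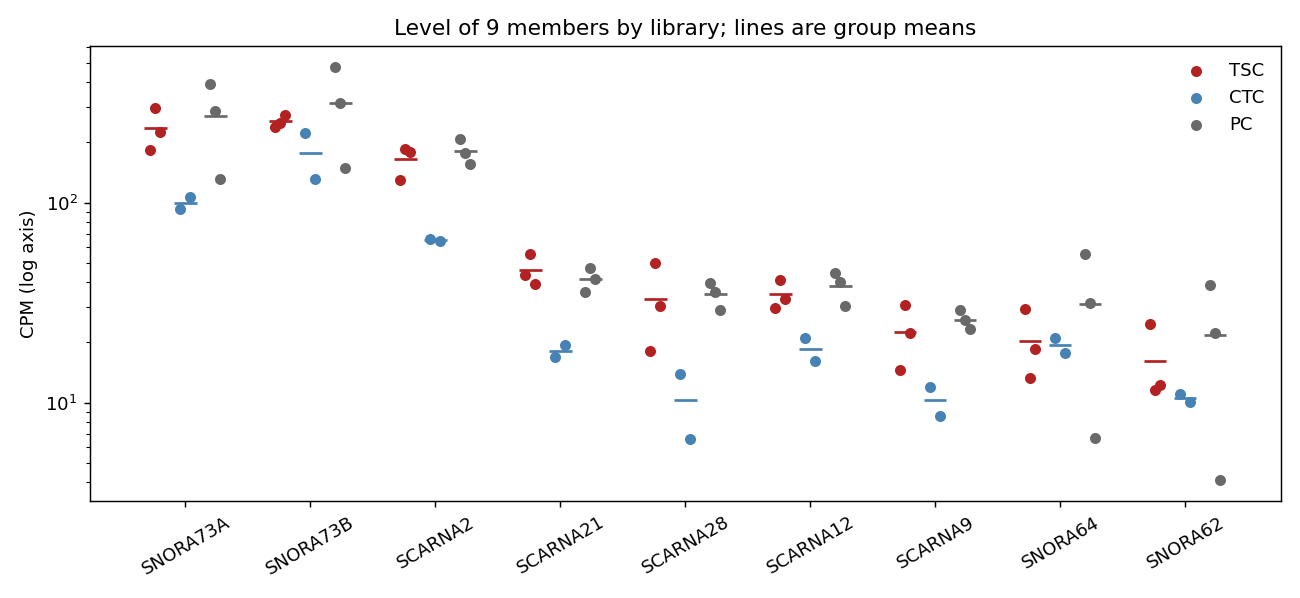
CPM on a log axis for 9 members in each library, with a horizontal line at each group mean, in the order TSC, CTC and PC. SCARNA2, SCARNA21, SCARNA28, SCARNA12, SCARNA9 and SNORA73A lie lower in both CTC libraries than in any PC library, and SNORA64 and SNORA62 show the wide spread among PC libraries, with PC replicate 3 lowest.

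DESeq2 and limma-voom called all 6 of these members as well. DESeq2 called 11 of 97 in all, with SCARNA10, SCARNA22, SNORA48, SNORA49 and SNORA63, and limma-voom 8, with SCARNA10 and SNORA94. Over all 14255 tested genes DESeq2 called 1132 and limma-voom 1660. The calls depended on single libraries. SCARNA2 was called in 7 of the 8 fits that left out 1 library and was not called without CTC replicate 2, when 0 members were called. SCARNA28 was called in 5 of 8 and was lost without CTC replicate 2, PC replicate 1 or PC replicate 2. The other 4 were each called in 3 of 8. SCARNA21 was lost without any 1 of the CTC or PC libraries, SCARNA12 and SCARNA9 without TSC replicate 3, CTC replicate 2 or any PC library, and SNORA73A without TSC replicate 3, either CTC library, PC replicate 1 or PC replicate 2. Without PC replicate 1 the members called were 1 of 91, beside 177 of 14046 genes, and without PC replicate 2 they were 1 of 95, beside 182 of 14133. Without TSC replicate 3 they were 3 of 96, beside 285 of 14153 genes. Leaving out TSC replicate 1 gave 10 of 96 members, beside 1575 of 14169 genes. Without PC replicate 3, the library low in most members, they were 8 of 97, beside 154 of 14125 genes. The median over the tested members was then −1.34. Without PC replicate 1 the median was −0.52.

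Among the scaRNAs that edgeR did not call, SCARNA10 was at 19.9 and 17.7 CPM in CTC, against 57.9, 50.6 and 27.9 CPM in PC (log2 −1.30 ± 0.35, adjusted p = 0.0510 by edgeR). SCARNA22, an H/ACA scaRNA in NSD2, was at 1.99 and 2.29 CPM in CTC, against 11.6, 12.9 and 3.63 CPM in PC (log2 −2.06 ± 0.62, adjusted p = 0.0717). SCARNA7, a box C/D scaRNA in KPNA4, was at 43.9 and 17.5 CPM in CTC, against 39.4, 46.6 and 26.2 CPM in PC (log2 −0.47 ± 0.39, adjusted p = 0.495). The CTC libraries lay below the PC libraries for SCARNA10 and SCARNA22 and on either side of some of them for SCARNA7. The fitted change was negative for all 19 tested scaRNAs, with a median of −1.30. Of the remaining ones, SCARNA16 was at −2.75, SCARNA20 at −1.79, SCARNA1 at −1.70, SCARNA27 at −1.47, SCARNA4 at −0.80 and SCARNA17 at −0.62, and SCARNA8, SCARNA15, SCARNA11 and SCARNA9L lay between −0.24 and −0.02. SCARNA18 had 0 counts in both CTC libraries and 1.26, 0.736 and 0.104 CPM in PC. The PC mean of 0.699 CPM was 2.67-fold above a floor of 3 counts over the CTC group (0.261 CPM). PC replicate 3 lay below that floor, so this fold holds for the mean only. SCARNA18 was not called (adjusted p = 0.205 by edgeR).

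SNORA members of middle level had large negative values that did not pass by edgeR. SNORA63, in EIF4A2, was at 5.98 and 4.96 CPM in CTC, against 35.9, 23.7 and 6.85 CPM in PC (log2 −2.08 ± 0.60, adjusted p = 0.0656 by edgeR). SNORA49, in EP400, was at 5.98 and 4.01 CPM in CTC, against 30.9, 16.7 and 6.85 CPM in PC (log2 −2.02 ± 0.60, adjusted p = 0.0702). PC replicate 3 was close to the CTC libraries for both. Both were called without PC replicate 3, but also without TSC replicate 1, with the replicate number as a block, with no filter and by DESeq2. Both genes were picked once their values were known. SNORA64 was at 20.9 and 17.7 CPM in CTC, against 55.1, 31.6 and 6.65 CPM in PC (log2 −0.72 ± 0.63, adjusted p = 0.519), so PC replicate 3 was the lowest library for it.

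The SNORA members with the lowest fitted values were SNORA74B (−4.49), SNORA22C (−3.19), SNORA58B (−2.58) and SNORA28 (−2.53), each at 0 or at most 0.997 CPM in CTC replicate 1, which is under its floor. Those with the highest were SNORA44 (2.38), SNORA80E (1.57), SNORA104 (0.55), SNORA5B (0.15) and SNORA80B (0.04). SNORA44 was at 5.98 and 0.381 CPM in CTC, against 0.586, 0.184 and 0.571 CPM in PC. SNORA104 was at 3.99 and 0 CPM in CTC, against 0.586, 0.368 and 1.30 CPM in PC. The CTC libraries did not share a direction for either.

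The comparison of TSC with CTC sets cells that returned to a tumour against those in blood. Here 2 of 97 members were called, both higher in TSC, where 0.898% of all tested genes were called and 0.372% were called higher. An unadjusted p under 0.05 was reached by 19 members, against 16.7% of all tested genes. All TSC libraries lay above both CTC libraries for 40 of 97 members, against 15.4% of all tested genes. The log2 fold change was positive for 85 of 97 members with a median of 0.76, beside 0.06 over all tested genes.

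SCARNA2 was at 129, 185 and 179 CPM in TSC, against 65.8 and 64.0 CPM in CTC (log2 1.35 ± 0.22, n = 3 and 2, adjusted p = 0.0098 by edgeR). SCARNA21 was at 43.2, 55.3 and 39.1 CPM in TSC, against 17.0 and 19.5 CPM in CTC (log2 1.30 ± 0.26, adjusted p = 0.0315). Every TSC library was above both CTC libraries for both genes. SCARNA28 was at 18.0, 50.0 and 30.4 CPM in TSC, against 14.0 and 6.58 CPM in CTC (log2 1.98 ± 0.45, adjusted p = 0.0563), and SNORA73A had a log2 fold change of 1.23 ± 0.36 (adjusted p = 0.121). DESeq2 called 4 of 97 members, SCARNA2, SCARNA21, SCARNA28 and SNORA73A, and limma-voom 3, SCARNA2, SCARNA21 and SCARNA28. Of all 14255 tested genes they called 386 and 440. By edgeR, SCARNA2 was called in 6 of the 8 fits that left out 1 library, not without TSC replicate 3 or CTC replicate 2, and SCARNA21 in 2 of 8, those without TSC replicate 1 and without PC replicate 3. The number of members called was 0 of 96 without TSC replicate 3, beside 36 of 14153 genes. It was 6 of 96 without TSC replicate 1, beside 696 of 14169 genes.

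The lowest fitted value in TSC against CTC belonged to SNORA80E, in KHDC4. It was at 0.891, 0.494 and 0.452 CPM in TSC, against 6.98 and 3.05 CPM in CTC and 3.27, 1.01 and 0.415 CPM in PC. Both CTC libraries lay above all TSC libraries, but the test did not pass (log2 −2.97 ± 1.04, adjusted p = 0.177 by edgeR). The other low values were those of SNORA87 (−1.16), SNORA44 (−1.11), SNORA11F (−0.50) and SNORA5B (−0.48). The highest, SCARNA18, SNORA74B, SNORA22C, SCARNA16 and SNORA28, had at most 0.997 CPM in either CTC library and were not called (adjusted p of at least 0.15).

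Host genes were compared with the members they contain. Of the 97 tested members 84 lay on the same strand inside 1 of 64 annotated genes, 18 of them in genes of ribosomal proteins, 16 in SNHG genes, which are named as snoRNA hosts, and 5 in TAF1D, and 82 pairs with 63 hosts had both genes tested. The remaining host, EIF4A1, which contains SNORA48 and SNORA67, was listed at 0 in all libraries, which cannot be read as absence of its RNA. In CTC against PC the median log2 fold change was −0.93 over the members and 0.04 over the hosts, and the member lay below its host in 75 of 82 pairs. In TSC against PC the medians were −0.22 and 0.04, and in TSC against CTC 0.73 and −0.09. Across the 82 pairs in CTC against PC, Pearson's r was 0.141 and Spearman's rho 0.154, as a description over genes that share libraries and, for members of 1 host, the host value.

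**Figure D5:**
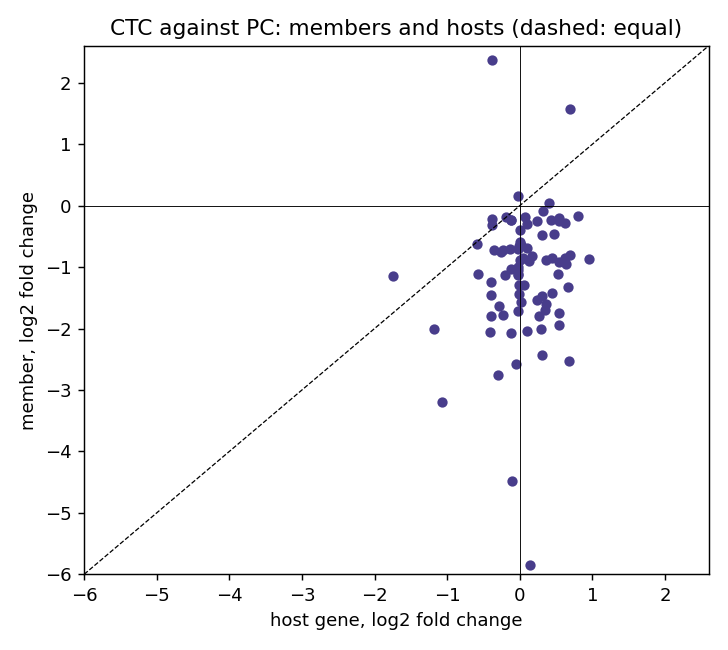
Log2 fold change in CTC against PC of each member (vertical axis) and of its host gene (horizontal axis) for 82 pairs, with a dashed line where both are equal. In 75 of 82 pairs the member lies below the line, and the hosts centre on 0.04.

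Of the 63 hosts, edgeR called 0 in TSC against PC and in TSC against CTC, with 4 and 6 at an unadjusted p under 0.05. DESeq2 called 0 and 1 there and limma-voom 2 and 0. In CTC against PC, DESeq2 called 3 hosts (CHD3, EP400 and NOL11) and limma-voom 6 (these 3 with EIF5, KHDC4 and TCP1). Of all 14255 tested genes DESeq2 called 193 in TSC against PC, 1132 in CTC against PC and 386 in TSC against CTC. For limma-voom these totals were 553, 1660 and 440, and they also apply to the gene lists below. By edgeR 1 host was called in CTC against PC, CHD3, a chromatin remodeller gene that contains SCARNA21. CHD3 was at 44.9 and 56.7 CPM in CTC, against 157, 170 and 199 CPM in PC (log2 −1.75 ± 0.34, adjusted p = 0.0145 by edgeR). Both the scaRNA and its host thus fell in CTC. SNHG3, which contains SNORA73A and SNORA73B, was at 38.9 and 39.1 CPM in CTC, against 31.0, 30.2 and 25.0 CPM in PC (log2 0.44 ± 0.25, adjusted p = 0.296). PHB2, a prohibitin gene that contains SCARNA12, had a log2 fold change of −0.02 ± 0.18 (adjusted p = 0.955). Fitted values of members of 1 host spread, with differences that were not tested and SEs of 0.60 to 1.15: the 5 tested members in TAF1D ran from −1.95 to −0.21 in CTC against PC, the 4 in EIF4A2 from −2.08 to −0.24 and the 3 in SNHG17 from −1.80 to −1.25.

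Of 10 genes for proteins of the H/ACA particle and of Cajal bodies, edgeR called 0 in each comparison, with 2 in TSC against PC, 5 in CTC against PC and 1 in TSC against CTC at an unadjusted p under 0.05. DESeq2 and limma-voom each called COIL and TCOF1 in CTC against PC and 0 in the other comparisons. In CTC against PC their median log2 fold change was 0.46, with 9 of 10 positive. DKC1, the pseudouridine synthase of the particle, was at 249 and 299 CPM in CTC, against 199, 213 and 197 CPM in PC (log2 0.44 ± 0.17, adjusted p = 0.149). COIL, the gene of coilin, was at 114 and 93.8 CPM in CTC, against 60.5, 66.6 and 61.7 CPM in PC (log2 0.71 ± 0.19, adjusted p = 0.0518). WRAP53, whose product brings scaRNAs to Cajal bodies, had a log2 fold change of 0.44 ± 0.30 (adjusted p = 0.405). TCOF1, the gene of the nucleolar protein treacle, was the 1 with a negative value (−1.01 ± 0.35, adjusted p = 0.103).

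Of 6 snoRNP assembly genes tested, 3 box C/D protein genes tested and 12 standalone pseudouridine synthase genes, 0 were called in any comparison by edgeR. DESeq2 and limma-voom both called NUFIP1 and NOP58 in CTC against PC, and limma-voom called RPUSD2 in TSC against PC. Their medians in CTC against PC were 0.32, 0.24 and 0.18. At an unadjusted p under 0.05 there were 1, 0 and 3 in TSC against PC, 1, 1 and 3 in CTC against PC and 0, 1 and 0 in TSC against CTC. The box C/D protein gene FBL (fibrillarin) was at 0 to 0.763 CPM in all libraries and was not tested. As for the members, such a low count cannot be read as absence of the RNA.

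Other noncoding RNAs were set beside the members. TERC, the telomerase RNA, which carries an H/ACA domain but is outside the symbol rule, was at 128 and 129 CPM in CTC, against 315, 289 and 289 CPM in PC (log2 −1.21 ± 0.23, adjusted p = 0.0135 by edgeR). RMRP, an RNA of the nuclease MRP, fell in CTC as well (log2 −1.10 ± 0.27, adjusted p = 0.0348), and RPPH1, the RNA of RNase P, had −0.95 ± 0.24 (adjusted p = 0.0373). RN7SK, a regulator of transcription elongation, was not called by edgeR (−0.73 ± 0.21, adjusted p = 0.0650), and RN7SL1 and RN7SL2 were listed at 0 in all libraries. Of the 4 tested, 3 were thus called lower in CTC than in PC by edgeR, and DESeq2 and limma-voom each called all 4. In TSC against CTC, TERC (1.11 ± 0.23, adjusted p = 0.0396) and RPPH1 (1.11 ± 0.24, adjusted p = 0.043) were higher in TSC by edgeR, and DESeq2 and limma-voom each called RMRP too. In TSC against PC 0 of 4 were called by edgeR, DESeq2 or limma-voom, with 0 at an unadjusted p under 0.05.

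The box C/D SNORD genes were called in 0 of 92 cases in each comparison by edgeR, with 5, 8 and 14 at an unadjusted p under 0.05 in TSC against PC, CTC against PC and TSC against CTC. DESeq2 called 0, 2 and 1 of them and limma-voom 4, 1 and 0 in the same order. Their median in CTC against PC was −0.59, with 71 of 92 negative, and in TSC against CTC 0.95. Summed, they held 854, 701 and 794 CPM of the unscaled library in TSC, 513 and 455 in CTC and 1181, 704 and 313 in PC. PC replicate 3 was again the lowest library, as for the SNORA members. Of 23 tested SNHG genes 0 were called in any comparison by edgeR, with 0, 5 and 5 at an unadjusted p under 0.05 in the same order. DESeq2 called 0, 2 and 0 of these and limma-voom 1, 2 and 0, and their median in CTC against PC was 0.33.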

How the data were processed

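Ribosomal RNA was removed from the total RNA of 8 libraries, per the labels. The deposited table holds whole-number counts per gene, not normalized by the authors; STAR 2.5.3a, featureCounts 1.5.3 and the build hg38 are named, per the submitters' processing notes. For the strand setting and for multiply mapped or overlapping reads the treatment is not given in those sources. Total counts were 957607 to 19264595 a library.

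The members and gene lists were chosen with earlier results of these data known. The count test was that of edgeR 4.0.16 under R 4.3.3 (genes kept by filterByExpr with the groups, TMM factors, glmQLFit, glmQLFTest, all 8 libraries, group factor, Benjamini-Hochberg over 14255 genes, called under 0.05). The SE is the log2 fold change divided by the square root of F. CPM used TMM library sizes. Named genes were called members, up to 20 a comparison, the 10 highest per kilobase, tested scaRNAs, the 5 largest rises and falls, hosts and fixed lists. SNORA49, SNORA62, SNORA63, SNORA48, SNORA67 and the members and genes named as examples of zeros or of calls by other tools were chosen after their values were seen.

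All 211 members matched RefSeq (GRCh38.p14) by symbol. GENCODE v29 genes with at least 90% mutual overlap gave strand, host and sequence for 167. The fits were tested on simulated data. Alternatives were DESeq2 1.42.0 (size factors, Wald test), limma 3.58.1 voom with quality weights, no filter, a minimum count of 30, TMM without small RNAs, thinning, only 2 groups, the replicate number as a block and each library left out.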

Additional observations from a re-analysis of the deposited data

How the results depend on the processing

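For the named members, a sign change counted as a reversal if the value was called under either setting, and there were 0 of them. In TSC against PC 0 members were called in the main fit, so a reversal there needed a call under another setting. Medians were not scored for reversals, and the member median in TSC against PC went from −0.20 to 0.18 without PC replicate 1. Genes called in TSC against PC numbered 355 with no filter, 193 by the DESeq2 Wald test, 553 by limma-voom and 128 with only the 2 groups. In CTC against PC they numbered 1535, 1132, 1660 and 1409 under these settings, 352 after thinning and 261 with the replicate block. In TSC against CTC they numbered 728, 386, 440 and 82, then 66 and 61. Members called in TSC against PC were 2 by limma-voom. In CTC against PC they were 19 with no filter and 11 by the Wald test, and in TSC against CTC 10 and 4, with 1 after thinning and 1 with only the 2 groups.

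Leaving out 1 library at a time gave 10 to 153 genes in TSC against PC, 35 to 1575 in CTC against PC and 36 to 696 in TSC against CTC. Members called ran from 0 to 0, 0 to 10 and 0 to 6, and member medians from −0.57 to 0.18, −1.34 to −0.52 and 0.55 to 0.96. Over genes, the deviations of same-numbered libraries from their group means had correlations of −0.168 to 0.102. With so few libraries a group, these values cannot show whether the numbers pair the samples. With the replicate block 0, 8 and 2 of 97 members were called, beside 67, 261 and 61 of 14255 genes. In CTC against PC, SCARNA9 and SCARNA12 were not among the 8, and SCARNA10, SNORA48, SNORA49 and SNORA63 were.

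Members at 10 counts or more numbered 73 and 85 in TSC replicates 1 and 3 and 16 and 65 in CTC replicates 1 and 2. CTC replicate 1 had 53 at 3 counts or more. After thinning TSC replicate 2 had 78 and PC replicate 3 had 81. Without the largest member, SNORA73B, the share was 0.105%, 0.111% and 0.101% in TSC and 0.0686% in CTC replicate 1. Depth limits CTC replicate 1 most.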
